A study of Mus musculus with 12 samples.

Results

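Pyruvate entry into mitochondria and the TCA cycle were followed through 30 genes in 4T1 mouse mammary tumours treated with MBQ-167, paclitaxel or both. The genes were chosen by name from knowledge of the pathway, with no measured value in the rule. Earlier results of these data were known when they and the other gene lists below were chosen. All 30 were found among the 46078 genes of the count table, and all 30 passed the filter on low counts. They took 0.231% to 0.280% of the protein-coding counts of a library.

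Pyruvate made by glycolysis crosses the inner mitochondrial membrane through a carrier, and the pyruvate dehydrogenase (PDH) complex turns it into acetyl-CoA. PDH kinases switch the complex off by phosphorylation, and a phosphatase switches it back on. Citrate synthase joins acetyl-CoA to oxaloacetate, and the cycle then yields reducing power for respiration and precursors for lipids, amino acids and nucleotides, which tumour cells draw on. Messenger RNA levels say nothing of phosphorylation or of flux.

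The tumours grew in BALB/c mice from 300000 cells of 4T1, a mouse mammary carcinoma line, here wild type by its label and carrying firefly luciferase, placed in the mammary fat pad. The vehicle group received neither drug. The MBQ-167 group received 100 mg/kg of MBQ-167, an inhibitor of the Rac and Cdc42 GTPases, in 5 doses a week. The paclitaxel group received 5 mg/kg of the microtubule stabiliser paclitaxel in 1 dose a week. The combination group received both drugs at these doses. Treatment began on day 14 and tumours were taken on day 28. The labels give no ages. They call the 3 libraries of a group biological replicates but do not tie them to separate mice. A p-value here weighs a difference against the spread between libraries, which may not be the spread between mice. Cells were injected on 2 occasions, and the labels do not tie these to libraries, so an effect of occasion cannot be told apart from one of treatment.

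Library totals lay between 11540557 and 17001562 counts, and protein-coding genes held 52.67% to 71.54% of them. The labelled carcinoma was checked against 8 epithelial markers, whose summed level ran from 987 to 3015 CPM (the usual read rate per library size, here scaled by TMM); 7 of the 8 had lower estimates in the MBQ-167 group than in vehicle, and all 8 in the other drug groups. Vehicle library 3 stood apart by its neutrophil markers, with a mean log2 level 1.45 above the vehicle mean against -0.598 and -0.851 in the other vehicle libraries. Across genes, GC content correlated with a library's deviation from the mean log2 CPM from 0.110 to 0.304 in vehicle and from -0.292 to -0.113 in paclitaxel libraries, without overlap. In whole tumours, fewer cells of a type and less RNA per cell cannot be told apart.

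The first question was where the pathway stood in vehicle tumours. Per kilobase of exon, the median of the 30 genes was 12.1 CPM, against 3.35 CPM over all tested genes with a length. Length here is that of the exons of all annotated transcripts merged. It can exceed that of the transcripts expressed in these tumours, so levels of different genes compare only roughly. The ranking was led by Sdhd, a membrane anchor of succinate dehydrogenase, at 48.7 ± 6.37 CPM per kb (SD, n = 3). Idh1, the cytosolic and peroxisomal NADP-dependent isocitrate dehydrogenase, had 42.1 ± 12.2, and Mdh2, the mitochondrial malate dehydrogenase, had 38.0 ± 5.45. These 3 neighbours in the order did not differ beyond their spread. Citrate synthase (Cs) had 27.9 ± 2.61 CPM per kb, close to Mdh1, the cytosolic malate dehydrogenase, at 28.6 ± 6.17. The lowest levels were those of Pdk4, Mpc1, Pcx, Pdk2 and Mpc2, while the kinases Pdk3 (8.63) and Pdk1 (4.27) lay above the median of all genes. Pdk4, a PDH kinase induced by fasting in many tissues, had 0.603 ± 0.626 CPM per kb. Mpc1, one of the pair of subunits of the pyruvate carrier, had 0.993 ± 0.269, and Pcx, pyruvate carboxylase, which makes oxaloacetate from pyruvate, had 1.14 ± 0.207. The other carrier subunit, Mpc2, had 1.95 ± 0.277. Within the PDH complex the catalytic subunit gene Pdha1 had 29.8 ± 6.42 CPM per kb and its partner Pdhb 6.41 ± 0.921, a gap well beyond their spread.

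**Figure D1:**
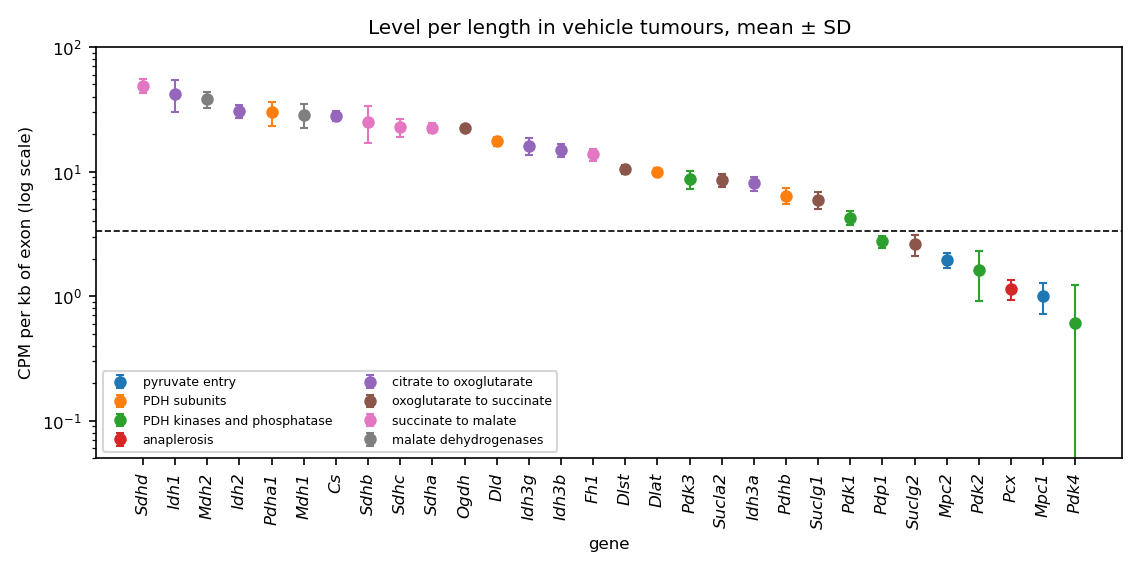
Level per length of the 30 genes in vehicle tumours, in CPM per kb of exon on a log axis, ordered from highest to lowest. Points are means and bars are SDs of 3 libraries, colours mark the step of the pathway, and the dashed line is the median of all tested genes, 3.35 CPM per kb. Most cycle enzymes lie above the line, and Suclg2 (2.60 CPM per kb) and Pdp1 (2.74) lie below it together with Pcx, Pdk2, Pdk4 and both carrier genes.

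Against vehicle, the genes of the cycle from citrate synthase to malate dehydrogenase had lower estimates in most cases in all 3 drug groups, and 4 of the 30 passed the test, all with paclitaxel alone. Cs, Idh2, Sdhc and Mdh2 fell by 0.45 to 0.59 on the log2 scale. A gene passed the test when the quasi-likelihood test of edgeR gave an adjusted p under 0.05, by Benjamini-Hochberg over the 18252 genes tested. With paclitaxel alone 5.66% of all tested genes passed, and those that fell were 2.49% of all tested genes. Of the 30, 4 fell and none rose.

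Cs (ENSMUSG00000005683; GRCm38 chromosome 10, 128337734 to 128362479, plus strand) makes citrate from acetyl-CoA and oxaloacetate. In vehicle libraries 1 to 3 it stood at 176, 163 and 146 CPM. With paclitaxel it stood at 98.2, 116 and 124 CPM, and with MBQ-167 at 142, 128 and 128 CPM. The combination libraries had 127, 121 and 123.5 CPM. Each of the 9 drug libraries was below each vehicle library, and paclitaxel library 1 was the lowest of all. Paclitaxel lowered Cs by 0.52 ± 0.11 (SE, log2; 0.698-fold, 95% interval -0.763 to -0.276, edgeR adjusted p = 0.0196).

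Idh2 (ENSMUSG00000030541; chromosome 7, 80094846 to 80115392, minus strand) is the mitochondrial NADP-dependent isocitrate dehydrogenase, a source of mitochondrial NADPH. It had 81.4, 68.5 and 86.7 CPM in vehicle, 65.5, 55.9 and 71.2 with MBQ-167, 52.5, 47.8 and 64.7 with paclitaxel, and 53.8, 58.1 and 57.6 with the combination. The paclitaxel and combination libraries lay below all vehicle libraries, while MBQ-167 library 3 overlapped vehicle library 2. The fall with paclitaxel was 0.52 ± 0.14 (log2, 0.698-fold, edgeR adjusted p = 0.0402).

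Sdhc (ENSMUSG00000058076; chromosome 1, 171127165 to 171150603, minus strand) is a membrane anchor of succinate dehydrogenase, the enzyme that belongs to both the cycle and the respiratory chain. Its levels were 85.3, 74.4 and 61.1 CPM in vehicle, 68.5, 53.6 and 59.9 with MBQ-167, 46.9, 46.0 and 54.0 with paclitaxel, and 57.1, 60.9 and 52.9 with the combination. All 3 paclitaxel libraries lay below vehicle with a clear gap, whereas combination library 2 sat just under vehicle library 3. Sdhc fell by 0.59 ± 0.14 (log2, 0.665-fold, edgeR adjusted p = 0.0252), the largest of the 4 falls.

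Mdh2 (ENSMUSG00000019179; chromosome 5, 135778480 to 135790398, plus strand) closes the cycle by oxidising malate to oxaloacetate in the mitochondrion. It had 156, 131 and 118 CPM in vehicle, 107, 100.1 and 107 with MBQ-167, 94.9, 96.9 and 105 with paclitaxel, and 112, 106 and 94.5 with the combination. As for Cs, each of the 9 drug libraries was below each vehicle library. The fall with paclitaxel was 0.45 ± 0.12 (log2, 0.732-fold, edgeR adjusted p = 0.0395).

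**Figure D2:**
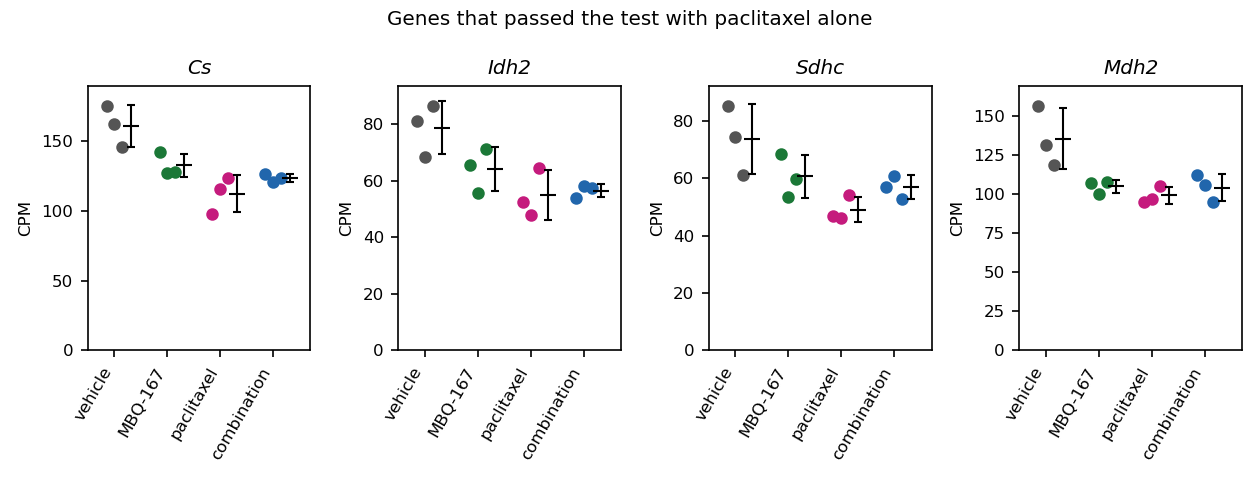
CPM of Cs, Idh2, Sdhc and Mdh2 in each of the 12 libraries, by group, on linear axes that start at 0; points are libraries 1 to 3 and the black marks are mean ± SD. Paclitaxel libraries lie below vehicle libraries in all 4 panels, and the 9 drug libraries lie below vehicle for Cs and Mdh2.

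These 4 calls had limits. All 4 were lost when only the paclitaxel and vehicle libraries were fitted, when protein-coding counts without TMM set the library size, and when vehicle library 1, paclitaxel library 1 or paclitaxel library 2 was left out. Correction for GC content kept Cs and added Dld, for a count of 2, and the neutrophil level as a covariate kept Sdhc alone, for a count of 1. Under that covariate the estimates of Cs (-0.80), Sdhc (-0.97) and Mdh2 (-0.66) were further below 0 than without it. That of Idh2 (-0.42) was nearer to 0, and all 4 had larger standard errors (0.18 to 0.24, against 0.11 to 0.14). The covariate did not overlap between vehicle and paclitaxel libraries, so this fit cannot tell neutrophil level from treatment. Leaving out vehicle library 2, MBQ-167 library 1 or combination library 2 left 2 calls. The estimates for Cs (-0.80 to -0.39), Sdhc (-0.97 to -0.46), Idh2 (-0.66 to -0.39) and Mdh2 (-0.66 to -0.32) stayed negative in all 23 alternatives.

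Ratios between genes of one library do not depend on how libraries are scaled, but they can depend on the GC content of the genes. They were chosen after the values were seen and carry no test. The log2 ratio of Sdhc to Sdha, the flavoprotein subunit, was -0.213, -0.357 and -0.443 in vehicle and -0.696, -0.713 and -0.699 with paclitaxel. The paclitaxel libraries lay below all 9 others in that ratio, the nearest being -0.589 in combination library 3. The log2 ratio of Mdh2 to Mdh1 was 0.788, 1.143 and 0.750 in vehicle and 0.456, 0.652 and 0.602 with paclitaxel, again without overlap. The log2 ratio of Idh2 to Idh3a, a subunit of the NAD-dependent enzyme, was 0.876, 0.980 and 1.01 in vehicle and 0.795, 0.319 and 0.564 with paclitaxel, also without overlap. It was below vehicle with MBQ-167 as well (0.860, 0.677 and 0.703) and overlapped with the combination (0.698, 0.885 and 0.485). The log2 ratio of Cs to Pdha1 overlapped, at 0.477, 0.956 and 0.231 in vehicle and 0.048, 0.301 and 0.002 with paclitaxel. So did those of Idh2 to Idh1, Sucla2 to Suclg2, Pdk1 to Pdha1, Sdhb to Sdha and Dld to Dlat. In each ratio without overlap the numerator had the higher transcript GC content. Sdhc had 52.4% and Sdha 48.55%, Mdh2 55.54% and Mdh1 48.24%, and Idh2 56.56% and Idh3a 43.87%. In ratios that overlapped, Cs, Idh2, Pdk1 and Sdhb were also richer in GC than their partners, while Sucla2 and Dld were poorer. The part of GC content in these ratios was not tested.

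The promoters of the genes that passed are shown because they hold letters that were common among the 30 genes and that the choice of genes did not use. The 250 bases before the RefSeq start (GRCm38.p6) were searched on both strands for 6 motifs. Of the 30 genes, 27 matched an entry; Pdp1, Idh3a and Sdhc did not. The Sp1 letters GGGCGG, or CCGCCC on the other strand, stood in 17 of these 27 promoters (63.0%) and in 32.9% of 27025 promoters of the same length. Median GC content was 61.6% in the 27 and 52.0% in all. The sequences run 5′ to 3′ on the strand of the gene, with motif letters in capitals. The Cs promoter (chr10:128337477-128337726, plus strand) and the Idh2 promoter (chr7:80115351-80115600, minus strand) hold the Sp1 letters on both strands. The Mdh2 promoter (chr5:135778399-135778648, plus strand) holds them far from the start. The Sdhd promoter (chr9:50603850-50604099, minus strand) is shown beside them because it holds the letters of both NRF1 and ETS.
Cs: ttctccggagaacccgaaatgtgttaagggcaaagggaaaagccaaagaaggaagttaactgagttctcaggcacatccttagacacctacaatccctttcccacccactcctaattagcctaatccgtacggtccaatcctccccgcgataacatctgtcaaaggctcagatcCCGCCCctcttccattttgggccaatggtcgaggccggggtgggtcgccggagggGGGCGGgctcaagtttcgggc
Idh2: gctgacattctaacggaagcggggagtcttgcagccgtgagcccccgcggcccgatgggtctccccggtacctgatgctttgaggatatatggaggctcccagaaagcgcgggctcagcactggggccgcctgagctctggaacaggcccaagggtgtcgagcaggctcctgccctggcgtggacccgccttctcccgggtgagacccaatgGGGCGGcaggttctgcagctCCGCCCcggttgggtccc
Mdh2: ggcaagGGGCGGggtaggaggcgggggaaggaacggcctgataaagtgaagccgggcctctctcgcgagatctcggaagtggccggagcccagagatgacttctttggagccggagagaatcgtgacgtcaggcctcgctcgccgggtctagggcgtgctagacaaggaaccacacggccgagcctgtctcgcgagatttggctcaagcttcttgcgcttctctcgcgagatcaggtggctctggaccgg
Sdhd: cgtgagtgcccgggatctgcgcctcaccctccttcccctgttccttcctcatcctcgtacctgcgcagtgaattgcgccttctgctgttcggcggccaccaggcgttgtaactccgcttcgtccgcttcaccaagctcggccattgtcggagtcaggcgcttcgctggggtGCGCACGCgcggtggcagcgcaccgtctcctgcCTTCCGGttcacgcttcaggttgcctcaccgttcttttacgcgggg

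The NRF1 letters GCGCANGC stood in 6 of the 27 promoters (22.2%) and in 8.42% of all; these are Mpc2, Pdk1, Sucla2, Sdha, Sdhb and Sdhd. NRF1 is known as an activator of nuclear genes for mitochondrial proteins. The ETS letters CCGGAAG stood in 3 (11.1%; Mpc1, Idh3g and Sdhd) against 7.05% of all, and the letters AAGGTCA, to which oestrogen-related receptors bind, in 0 against 4.05%. The E-box CACGTG stood in 2 (7.41%; Pdk2 and Pcx) against 6.05%. The core ACGTG, which lies within the E-box and is the core to which hypoxia-inducible factors bind, stood in 8 (29.6%) against 16.6%. A match describes letters only.

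Pyruvate entry was the one step with no lower estimate under paclitaxel. Mpc1 had 1.51, 2.06 and 2.63 CPM in vehicle, 1.504, 2.24 and 2.68 with MBQ-167, 3.95, 2.45 and 3.01 with paclitaxel, and 1.77, 1.74 and 2.90 with the combination. It is thinly counted, with 19 to 82 counts a library, and its exons overlap those of 4930506C21Rik on the other strand. Paclitaxel libraries overlapped vehicle, and the estimate was 0.60 ± 0.35 (log2, edgeR adjusted p = 0.327). Mpc2 had 16.1, 14.7 and 12.1 CPM in vehicle, 11.9, 11.55 and 14.4 with MBQ-167, 13.9, 17.6 and 12.9 with paclitaxel, and 16.1, 16.2 and 14.4 with the combination. Each drug group overlapped vehicle, while the combination libraries (lowest 14.44 CPM) lay just above the MBQ-167 libraries (highest 14.43). The estimate was 0.05 ± 0.17 for paclitaxel (log2, edgeR adjusted p = 0.899); this sign turned under the GC correction (-0.13), the neutrophil covariate (-0.19) and in 2 of the 12 fits that left out a library.

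The 4 PDH subunit genes split with paclitaxel, 2 with lower and 2 with higher estimates, and all 4 were lower with MBQ-167 and with the combination. With protein-coding library sizes Pdha1 turned with paclitaxel, Pdhb with MBQ-167, and Pdha1, Pdhb and Dld with the combination. Dlat, the acetyltransferase core, had 52.5, 48.9 and 45.2 CPM in vehicle, 45.2, 44.6 and 37.2 with MBQ-167, 35.1, 39.1 and 42.2 with paclitaxel, and 47.4, 43.4 and 40.3 with the combination. Its paclitaxel libraries lay below vehicle without overlap, at -0.33 ± 0.12 (log2, edgeR adjusted p = 0.119). Dld, the dihydrolipoamide dehydrogenase that PDH shares with the oxoglutarate dehydrogenase complex, had 60.8, 69.7 and 62.4 CPM in vehicle, 53.1, 52.9 and 50.04 with MBQ-167, 74.2, 68.6 and 55.8 with paclitaxel, and 54.8, 63.9 and 65.7 with the combination. Dld was below vehicle in all MBQ-167 libraries (-0.31 ± 0.12, log2, edgeR adjusted p = 0.315) and overlapped it in the other groups. Its paclitaxel estimate of 0.04 became -0.54 with the GC correction (adjusted p = 0.039); its transcript GC content was 39.3%. Pdha1 and Pdhb stayed within -0.13 and 0.10 (log2) of vehicle in all 3 comparisons. Pdha1 overlaps exons of Map3k15 on the other strand.

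None of the 4 PDH kinases and the phosphatase Pdp1 passed in any comparison, in edgeR, DESeq2 or limma voom. Pdk3 had 26.1, 19.3 and 20.9 CPM in vehicle, 19.8, 24.98 and 28.4 with MBQ-167, 19.4, 20.0 and 28.5 with paclitaxel, and 20.8, 15.4 and 21.9 with the combination. Pdp1, which restores PDH activity, had 12.4, 10.99 and 13.7 CPM in vehicle, 14.0, 11.5 and 10.7 with MBQ-167, 12.2, 14.1 and 13.2 with paclitaxel, and 14.2, 13.7 and 14.4 with the combination. The combination libraries of Pdp1 lay close together, at 14.1 ± 0.363 CPM (SD, n = 3), above vehicle library 1 and 2 and overlapping library 3 (12.4 ± 1.36). Pdk1, the kinase that hypoxia-inducible factors are known to induce, stayed between 29.5 and 37.9 CPM in all 12 libraries. Pdk4 rested on 2 to 68 counts, with the highest value in vehicle library 3 (4.59 CPM), which was also highest in summed skeletal muscle markers (40.04 CPM, against 3.79 to 23.6 in the other libraries); of 9 tested muscle markers, 9, 8 and 8 had lower estimates than vehicle with MBQ-167, paclitaxel and the combination, none passed in edgeR, DESeq2 or limma voom (0 or 1 at an unadjusted p under 0.05), and their part in the value of Pdk4 was not tested. Its estimates against vehicle were -2.34 ± 0.92 with MBQ-167, -1.33 ± 0.86 with paclitaxel and -1.60 ± 0.87 with the combination (log2, edgeR adjusted p = 0.309, 0.388 and 0.35). Pdk2 ran from 3.28 to 9.95 CPM, the highest being combination library 1.

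Pcx supplies oxaloacetate from pyruvate. It had 4.54, 5.30 and 6.48 CPM in vehicle, 4.01, 3.90 and 5.17 with MBQ-167, 4.48, 7.66 and 3.01 with paclitaxel, and 4.74, 5.45 and 7.64 with the combination. Paclitaxel libraries 2 and 3 held the highest and the lowest of all 12 values, so the group estimate of -0.12 ± 0.32 (log2, edgeR adjusted p = 0.864) is wide. The sign of this estimate turned with protein-coding library sizes (0.02) and with the neutrophil covariate (0.14). Summed adipocyte markers were also highest in paclitaxel library 2 (180.5 CPM) and lowest in paclitaxel library 3 (16.26 CPM). Within vehicle, library 3 had the most Pcx and the lowest marker sum (22.89 CPM). Of 8 adipocyte markers, 0 had lower estimates with paclitaxel or with the combination, and 4 with MBQ-167. Their part in the value of Pcx was not tested.

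Beyond Cs and Idh2, the step from citrate to oxoglutarate holds Idh1 and the 3 subunits of the NAD-dependent isocitrate dehydrogenase, Idh3a, Idh3b and Idh3g. All 6 genes of this step had lower estimates than vehicle in all 3 drug groups. With protein-coding library sizes, which moved the median of all genes by 0.13, the paclitaxel estimates of Idh1 (-0.11) and Idh3a (-0.12) became 0.02 and 0.01, and that of Idh3a with MBQ-167 also turned above 0. Idh3b (40.5 ± 5.69 CPM with paclitaxel against 50.8 ± 6.19 in vehicle) and Idh3g (34.4 ± 1.55 against 43.5 ± 6.86) lay below vehicle without overlap and missed the threshold, at edgeR adjusted p = 0.194 and 0.242. Idh3b overlaps exons of Nop56 on the other strand. Idh1 varied most within vehicle, from 83.1 to 151 CPM, and overlapped in each comparison.

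From oxoglutarate to succinate, Dlst, the succinyltransferase core of the oxoglutarate dehydrogenase complex, had 94.4, 109 and 94.7 CPM in vehicle, 89.0, 87.5 and 85.5 with MBQ-167, 81.9, 86.7 and 80.6 with paclitaxel, and 80.3, 84.8 and 89.9 with the combination. All 9 drug libraries lay below all vehicle libraries, yet the shift was small and did not pass: -0.19 ± 0.10, -0.26 ± 0.10 and -0.22 ± 0.10 (log2; edgeR adjusted p = 0.453, 0.136 and 0.247). Suclg1, the shared alpha subunit of succinyl-CoA ligase, had 30.4, 28.9 and 22.6 CPM in vehicle, 23.6, 20.3 and 25.8 with MBQ-167, 21.3, 20.5 and 26.1 with paclitaxel, and 17.6, 22.3 and 22.2 with the combination. The combination libraries lay below vehicle, with -0.40 ± 0.16 (log2, edgeR adjusted p = 0.205). The beta subunits Suclg2 (GTP-forming) and Sucla2 (ATP-forming) overlapped vehicle in each drug group. Ogdh, the first enzyme of the complex, lay below vehicle without overlap with paclitaxel (101 ± 4.36 against 121 ± 5.76 CPM) and with the combination (103 ± 8.93), at edgeR adjusted p = 0.184 and 0.293.

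From succinate to malate, Sdhd had 56.5, 69.0 and 54.4 CPM in vehicle, 60.2, 49.5 and 52.2 with MBQ-167, 45.7, 45.4 and 58.5 with paclitaxel, and 47.1, 54.3 and 43.7 with the combination. Combination libraries lay just below vehicle (-0.31 ± 0.14, log2, edgeR adjusted p = 0.261), and paclitaxel library 3 overlapped it. Sdhb, the iron-sulphur subunit, spread widely within vehicle, at 74.2, 57.7 and 37.4 CPM, and did not pass in any comparison with vehicle. Sdha was below vehicle in all MBQ-167 and combination libraries (75.1 ± 3.46 and 79.8 ± 3.02 against 92.4 ± 8.31 CPM), at edgeR adjusted p = 0.255 and 0.307. Fh1, fumarase, was 46.5 ± 5.13 CPM in vehicle and 39.9 ± 0.834 with the combination (edgeR adjusted p = 0.33), without overlap.

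Mdh1, the cytosolic partner of Mdh2 in the malate-aspartate shuttle, had 90.6, 59.4 and 70.4 CPM in vehicle, 65.1, 51.4 and 53.1 with MBQ-167, 69.2, 61.7 and 69.4 with paclitaxel, and 62.7, 61.0 and 57.4 with the combination. The groups overlapped, and the estimates were -0.38 ± 0.15 with MBQ-167, -0.14 ± 0.15 with paclitaxel and -0.28 ± 0.15 with the combination (log2; edgeR adjusted p = 0.297, 0.624 and 0.32). Vehicle library 1 held the highest value, and without it the paclitaxel estimate was 0.03. Mdh1 overlaps exons of Wdpcp on the other strand.

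**Figure D3:**
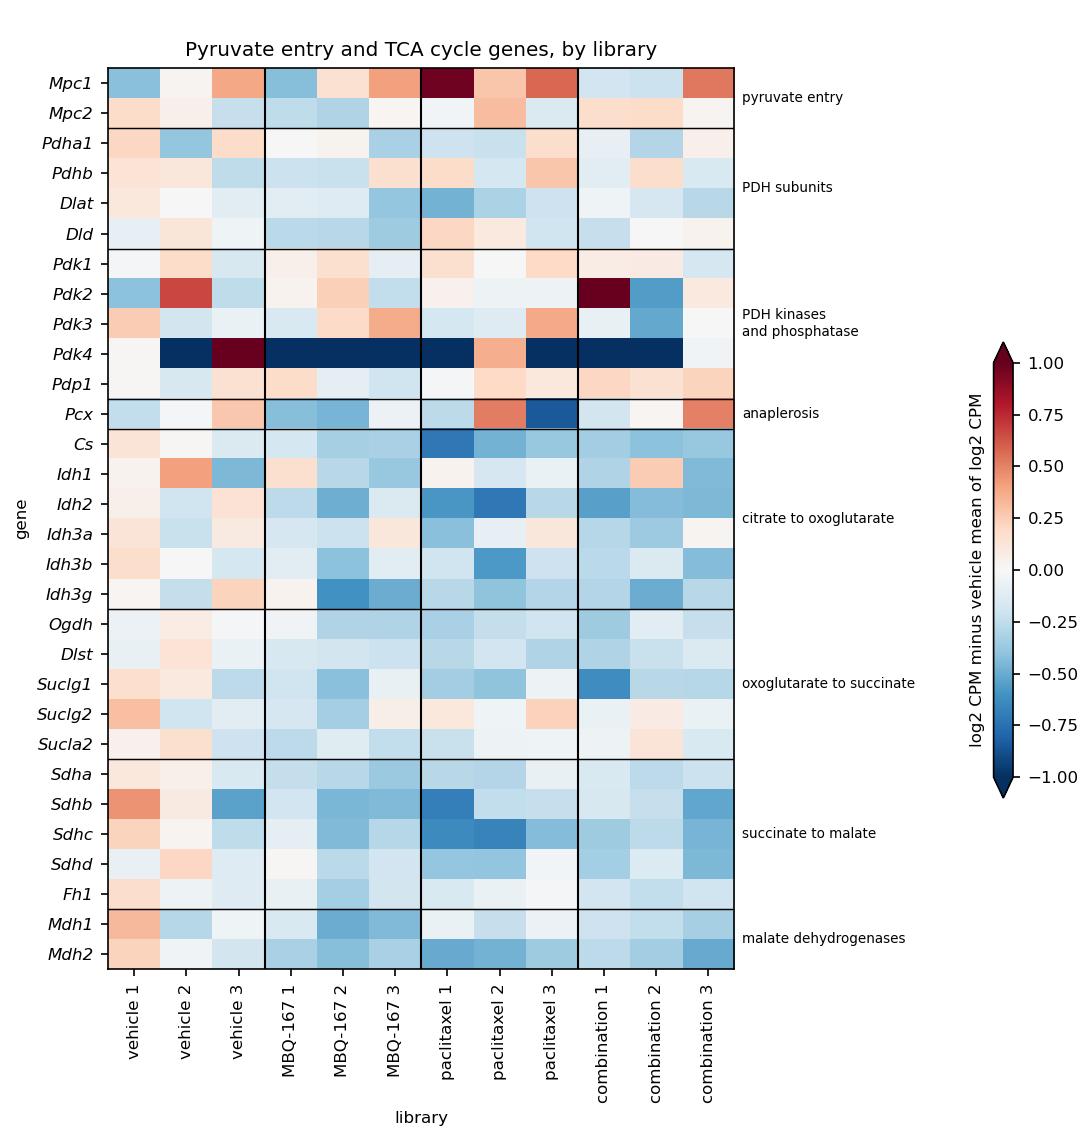
Log2 CPM of each gene in each library minus the mean log2 CPM of the 3 vehicle libraries, with genes ordered by step and the colour scale cut at -1 and 1. The cycle genes from Cs downward are mostly blue in the 9 drug libraries, while the rows of the carrier, kinase and carboxylase genes hold red and blue. Within these rows Pdk4 is mostly blue in the drug libraries and Mpc1 is red in the paclitaxel libraries.

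Vehicle library 1 held the highest value of 13 of the 30 genes, and a vehicle library held it in 21. The lowest value fell in an MBQ-167 library for 11 genes, in a paclitaxel library for 8, in a combination library for 8 and in a vehicle library for 3. The same shares over all tested genes were not counted. TMM factors ran from 0.826 (library 1) to 0.904 in vehicle and from 0.933 to 1.22 in the drug libraries. With MBQ-167, 5 genes (Dld, Cs, Dlst, Sdha and Mdh2) had each drug library below each vehicle library, as did 8.79% of all tested genes. With paclitaxel there were 9 (Dlat, Cs, Idh2, Idh3b, Idh3g, Ogdh, Dlst, Sdhc and Mdh2) beside 12.1% of all genes. With the combination there were 11 (Cs, Idh2, Idh3g, Ogdh, Dlst, Suclg1, Sdha, Sdhc, Sdhd, Fh1 and Mdh2) beside 9.86%. Cs, Dlst and Mdh2 were below vehicle in all 9 drug libraries, as were 3.95% of all genes. No gene of the 30 lay above vehicle without overlap in any drug group.

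With MBQ-167 alone, none of the 30 genes passed in edgeR, beside 0.0931% of all tested genes. An unadjusted p under 0.05 was found for 7 of the 30, beside 2348 of the 18252 genes tested. DESeq2 and limma voom also called 0 of the 30, beside 284 and 15 of all genes. Estimates were lower than vehicle for 27 of the 30, with a median of -0.21 (log2) against 0.00 over all genes. The 3 with higher estimates were Mpc1, Pdk1 and Pdk3. Mdh2 had the smallest p, at -0.37 ± 0.12 (log2, edgeR adjusted p = 0.207).

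With paclitaxel alone, 22 of the 30 had lower estimates, with a median of -0.13 (log2) against 0.00 over all genes. Of the 30, 8 had an unadjusted p under 0.05, beside 4126 of the 18252 genes tested. The 8 genes above 0 were Mpc1, Mpc2, Pdhb, Dld, Pdk1, Pdk3, Pdp1 and Suclg2. When library size was set by protein-coding counts, the median over all genes moved to 0.13 and that of the 30 to 0.00. A change of library size moves all genes by nearly the same amount. The distance of the 30 below the median of all genes, 0.13 in both scalings, is therefore no test of the result. With that scaling 15 of the 30 had lower estimates, since Pdha1, Pdk2, Pcx, Idh1, Idh3a, Sucla2 and Fh1 turned. The GC correction moved the median of the 30 to -0.27 and that of all genes to -0.04, with 27 of the 30 lower.

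With the combination, none of the 30 passed in edgeR, beside 1.84% of all genes. An unadjusted p under 0.05 was found for 8 of the 30, beside 3350 of the 18252 genes tested. Among the 30, limma voom called 0 and DESeq2 called 2, Cs and Idh2, beside 243 and 918 of all genes. Without the filter on low counts edgeR called Idh2. Estimates were lower for 25 of the 30, with a median of -0.21 (log2). Those of the 4 genes above were -0.38 ± 0.11 for Cs, -0.48 ± 0.14 for Idh2, -0.37 ± 0.14 for Sdhc and -0.38 ± 0.12 for Mdh2 (log2; edgeR adjusted p = 0.0955, 0.0842, 0.169 and 0.109). The 3 comparisons share the vehicle libraries, so their likeness carries no weight of its own.

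**Figure D4:**
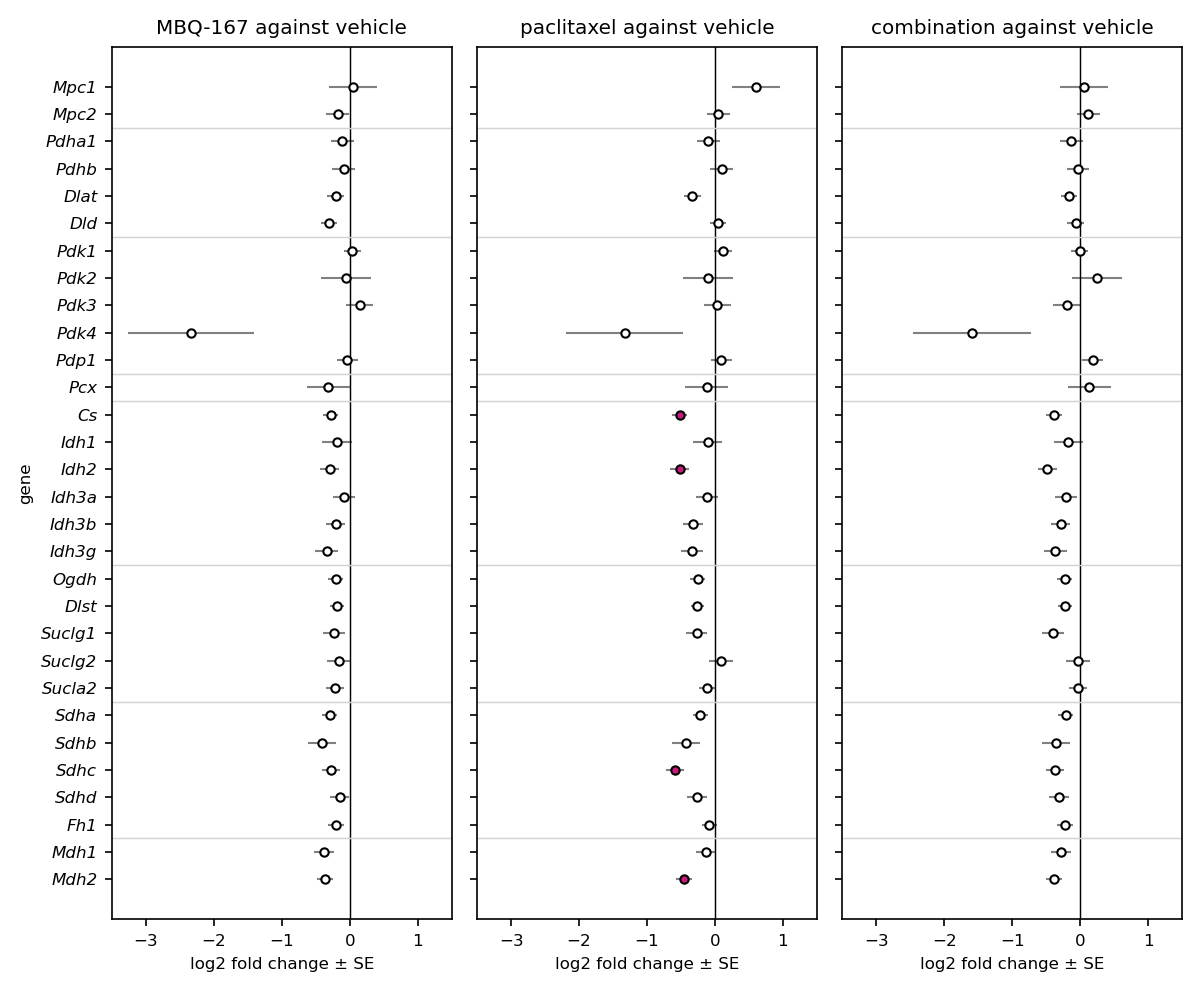
Log2 fold change against vehicle ± SE of the 30 genes in the 3 drug groups, in pathway order; filled points passed at an edgeR adjusted p under 0.05. Filled points appear for Cs, Idh2, Sdhc and Mdh2 under paclitaxel, and Pdk4 has the widest bars.

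Whether the drugs together differed from either alone was tested directly. None of the 30 passed for the combination against MBQ-167 or against paclitaxel, where 0% of all genes passed in each. An unadjusted p under 0.05 was found for 0 of the 30 in both, beside 940 and 430 of the 18252 genes tested. DESeq2 and limma voom also called 0 of the 30 in both. Medians were 0.00 and -0.01 (log2). For Cs the combination minus paclitaxel was 0.14, with a 95% interval from -0.106 to 0.380 (log2), for Sdhc 0.22 (-0.076 to 0.511), for Idh2 0.04 (-0.253 to 0.331) and for Mdh2 0.07 (-0.182 to 0.322). Differences of up to 0.511 (Sdhc) are within these intervals, so the groups are not shown to be alike.

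The interaction, which is 0 where the drugs' effects add on the log2 scale, called none of the 30 in edgeR, beside 0.0603% of all genes. An unadjusted p under 0.05 was found for 4 of the 30, beside 1795 of the 18252 genes tested. DESeq2 and limma voom called 0 of the 30, beside 133 and 11 of all genes. The median was 0.23 (log2) with 4 of the 30 below 0. Among the 4 genes it was 0.42 ± 0.16 for Cs, 0.50 ± 0.19 for Sdhc, 0.44 ± 0.17 for Mdh2 and 0.34 ± 0.19 for Idh2 (edgeR adjusted p = 0.418, 0.427, 0.412 and 0.609). The vehicle libraries enter this contrast and the single-drug ones, so these values are not separate evidence.

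The 6 libraries with paclitaxel were then set against the 6 without. None of the 30 passed in edgeR, beside 3.19% of all genes. An unadjusted p under 0.05 was found for 4 of the 30, beside 3548 of the 18252 genes tested. Among the 30, limma voom called 1, Cs, and DESeq2 called 3, Cs, Idh2 and Sdhc, beside 567 and 1235 of all genes. Each of the 6 libraries with paclitaxel had less Cs than each of the 6 without, at -0.31 ± 0.08 (log2, edgeR adjusted p = 0.051). Idh2 was at -0.35 ± 0.10 (log2, adjusted p = 0.0637) and Sdhc at -0.34 ± 0.10 (log2, adjusted p = 0.0708), both with overlap. By step, all 6 genes from citrate to oxoglutarate, all 5 from succinate to malate and both malate dehydrogenases had lower estimates, while both carrier genes and Pcx had higher ones. With protein-coding library sizes Idh1, Sdha, Fh1 and Mdh1 turned to higher estimates in this contrast. Of the same contrast for MBQ-167, edgeR called none, beside 0% of all genes. An unadjusted p under 0.05 was found for 2 of the 30, beside 970 of the 18252 genes tested. DESeq2 and limma voom called 0 of the 30. In that contrast 28 of the 30 had lower estimates, with a median of -0.09 (log2).

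Genes around the pathway that are not among the 30 were counted from a list of 34, of which 33 were tested. Got1, the cytosolic aspartate aminotransferase of the malate-aspartate shuttle, fell with paclitaxel from 41.6, 39.1 and 42.4 CPM to 29.3, 21.1 and 28.5 CPM, by 0.64 ± 0.17 (log2, edgeR adjusted p = 0.0393), and was past the threshold in 12 of 23 alternatives, with estimates between -0.73 and -0.51.

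Of 11 regulators listed, 9 were tested and none passed in any comparison in edgeR or limma voom, with 0 to 3 at an unadjusted p under 0.05; DESeq2 called 1, Ppard, with the combination. Ppara and Ppargc1a did not pass the filter on low counts. Esrra, an oestrogen-related receptor that activates genes of oxidative metabolism, was at 0.47 ± 0.14 with MBQ-167 (log2, edgeR adjusted p = 0.185), and Myc at 0.03 ± 0.16 with paclitaxel (log2, edgeR adjusted p = 0.924). Of 10 genes for other mitochondrial proteins (porins, import and cristae proteins, chaperones), none passed in any comparison in edgeR, DESeq2 or limma voom, with 0 to 2 at an unadjusted p under 0.05. Their median (log2) was -0.14 with MBQ-167, -0.13 with paclitaxel and -0.10 with the combination, against -0.21, -0.13 and -0.21 for the 30.

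Other gene groups moved in the same comparisons, in which edgeR called 5.66% of all genes with paclitaxel and 1.84% with the combination. Of 12 hypoxia genes, edgeR called 6 lower with paclitaxel (Ndrg1, P4ha1, Car9, Slc2a1, Adm and Ldha) and 3 with the combination (Car9, Slc2a1 and Adm). DESeq2 called 6 and 6 of them, and limma voom 6 and 2. Slc2a1, a glucose transporter, was at -0.93 ± 0.15 with paclitaxel (log2, edgeR adjusted p = 0.00488). The summed level of the 12 ran from 2107 to 2507 CPM in vehicle and from 1241 to 1762 CPM in the drug libraries, without overlap. Of 12 neutrophil markers, edgeR called 10 lower with paclitaxel and 9 with the combination, DESeq2 the same numbers, and limma voom 6 and 3. Their summed level was 379.5 to 1603 CPM in vehicle, 222 to 346 CPM with MBQ-167, 213 to 293 CPM with paclitaxel and 216 to 325 CPM with the combination. With MBQ-167 all 12 had lower estimates, of which edgeR and limma voom called 0 and DESeq2 called 2. Of these markers Ly6g alone was at 0 counts in any library. Of 6 tested erythroid markers, edgeR called 3 lower with paclitaxel and 3 with the combination, DESeq2 4 and 4, and limma voom 3 and 2. The erythroid sum was 258 to 265 CPM in vehicle, 44.55 to 107.5 CPM with MBQ-167, 14.5 to 107 CPM with paclitaxel and 32.62 to 67.48 CPM with the combination. With MBQ-167 all 6 had lower estimates, of which edgeR and limma voom called 0 and DESeq2 called 1. Among epithelial markers Krt8 fell with paclitaxel (-0.80 ± 0.18, log2, edgeR adjusted p = 0.0236). Klrd1, of 8 T and NK cell markers, rose with paclitaxel and with the combination, and no adipocyte, macrophage, fibroblast or endothelial marker passed in edgeR, DESeq2 or limma voom, with 0 or 1 of a list at an unadjusted p under 0.05. The part of these shifts in the lower cycle genes was not tested beyond a fit with the neutrophil covariate, which cannot tell neutrophil level from treatment. The covariate, set against the vehicle mean, ran from -0.851 to 1.45 (log2) in vehicle and from -2.889 to -1.777 with paclitaxel, without overlap. With the covariate 1 of the 30 passed with paclitaxel, against 4 without it. The median of the 30 was -0.23 (-0.13 without it), and 24 had lower estimates (22 without it). An unadjusted p under 0.05 was found for 13 of the 30 (8 without it), beside 3257 of all genes (4126 without it).

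**Figure D5:**
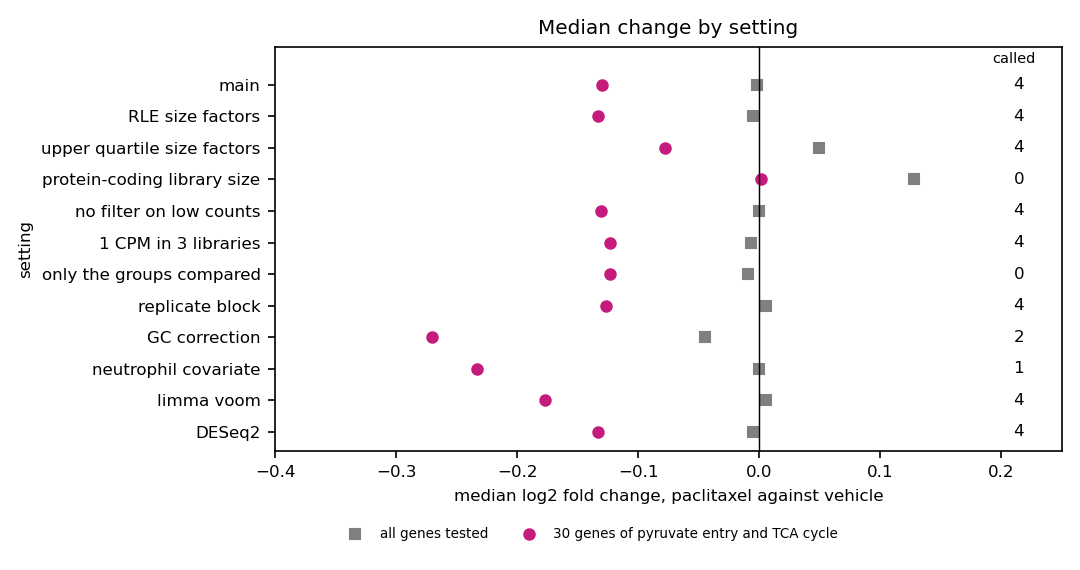
Median log2 fold change with paclitaxel against vehicle under each setting of the processing, for the 30 genes (circles) and for all genes tested (squares), with the number of the 30 that passed at the right. The median of the 30 lies left of that of all genes in each row, and the number that passed is 4 in 8 rows, 2 in 1, 1 in 1 and 0 in 2. Rows that differ only in library size factors move both medians together, so the distance in them is no separate check.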

How the data were processed

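The authors deposited raw counts per gene, 1 column for each of the 12 tumour libraries. The submitters' processing notes name HISAT2, HTSeq and DESeq2, and the build GRCm38. The sources used here do not give their versions, the annotation, strandedness or multi-mapping rules, so reads shared with retrocopies or with overlapping genes on the other strand cannot be told apart. The labels call the molecule polyA RNA, and 17.11% to 37.54% of the counts fell on 3 features of chromosome 17 that resemble ribosomal RNA.

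Symbols, exon lengths, biotypes and overlaps came from GENCODE vM21 (GRCm38), and promoters from RefSeq. Genes were filtered with filterByExpr of edgeR 4.0.16 (minimum count 10), leaving 18252. All 12 libraries entered a single quasi-likelihood model with TMM scaling (biological coefficient of variation 0.214, 8 residual degrees of freedom), and p-values of each of the 8 comparisons were adjusted by Benjamini-Hochberg over all genes. SE is the log2 fold change divided by the root of the F statistic, and 95% intervals use the fit's 14.1 degrees of freedom. CPM uses TMM-scaled library sizes. The script was tested on simulated counts in which genes of all levels were changed in the paclitaxel group. Of genes changed by 0.5, 1 and 2 (log2), 3.6%, 42.9% and 66.7% passed in the right direction, and 5% of the calls were false. A gene that did not pass is therefore not shown to be unchanged. The simulation changed 57, 73 and 70 genes by these amounts, while 1033 genes passed with paclitaxel in the data. With fewer changed genes the adjustment asks for a smaller p. The 30 genes also had higher levels than all tested genes (medians 12.1 and 3.35 CPM per kb in vehicle). The simulated rates are therefore not those of the 30 genes.

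Libraries were grouped by the treatment label. Values per library are given for genes called in any comparison and for the 2 genes with the smallest p of each step in the paclitaxel 6 against 6 contrast; other genes are given by range and count. Non-member genes come from listed sets of pathway genes, regulators, mitochondrial, hypoxia and cell type genes, of which those called are named, except items not reported here. Esrra, Myc, the other genes of the 30 given with means and the within-library ratios were named after their values were seen. The members and lists were chosen with earlier results of these data known.

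Alternatives were DESeq2 1.42.0, limma 3.58.1 voom, RLE factors, other filters, the groups compared alone, a replicate block, a GC correction (spline with 5 degrees of freedom, 18144 genes), a neutrophil covariate and leaving out each library. Upper quartile factors and protein-coding library sizes were added after seeing the data.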

Additional observations from a re-analysis of the deposited data

How the results depend on the processing

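With paclitaxel, the 4 calls became 0 with protein-coding library sizes, 0 with only the groups compared, 2 with the GC correction, 1 with the neutrophil covariate, and 0 to 4 when a library was left out; the replicate block left 4. With the combination, 0 calls became 1 without a filter on low counts and 2 with DESeq2. In the 6 against 6 paclitaxel contrast, 0 calls became 1 with RLE factors, with 1 CPM in 3 libraries, with the replicate block and with limma voom. They became 2 without a filter, 3 with DESeq2, and 0 to 2 when a library was left out. Over all genes this contrast called 582, 960 without a filter, 567 with limma voom and 1235 with DESeq2. In the other 5 comparisons no alternative called a gene of the 30. The cause of these shifts was not tested.

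With paclitaxel, 22 of the 30 had lower estimates, 15 with protein-coding library sizes, where the median of the 30 turned to 0.0014, 27 with the GC correction and 24 with the neutrophil covariate; 7, 7 and 8 of the 30 changed sign under these settings. Among the genes whose values were given for each library, those that changed sign were Mpc2 (-0.129 with the GC correction, -0.192 with the neutrophil covariate, -0.091 to 0.136 when a library was left out), Dld (-0.543 with the GC correction, -0.051 to 0.147), Pdk3 (-0.448 and -0.017 with the GC correction and the neutrophil covariate, -0.172 to 0.162), Pdp1 (-0.201 with the GC correction), Pcx (0.021 with protein-coding library sizes, 0.142 with the neutrophil covariate, -0.534 to 0.142) and Mdh1 (-0.271 to 0.035). Cs passed in 17 of 23 alternatives, Sdhc in 16, Idh2 in 12 and Mdh2 in 10. Over all genes, paclitaxel called 578 up and 455 down, 1180 and 222 with protein-coding library sizes, 749 and 363 with upper quartile factors, 130 and 215 with the GC correction, 100 and 72 with the neutrophil covariate, 170 and 81 with only the groups compared, and 931 and 806 with DESeq2. The combination called 188 up and 148 down, 504 and 103 with protein-coding library sizes, 9 and 43 with the GC correction, 471 and 447 with DESeq2, 236 and 114 with upper quartile factors, 382 and 467 without a filter, 30 and 18 with the neutrophil covariate, 1 and 6 with only the groups compared, and 125 and 118 with limma voom. When a library was left out, the combination called 16 (without vehicle library 1) to 268 up and 10 (without combination library 1) to 156 down, and paclitaxel 169 to 648 up and 61 (both lows without paclitaxel library 2) to 491 down. Paclitaxel also fell to 207 and 159 without vehicle library 1 and to 262 and 144 without paclitaxel library 1. The combination called 19 and 10, 23 and 15, and 56 and 26 without combination libraries 1, 2 and 3, 16 and 44 without vehicle library 1, 99 and 65 without MBQ-167 library 2, 96 and 87 without paclitaxel library 1, and 120 and 103 without paclitaxel library 3.

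The 18 pairs of libraries with the same number in different groups had deviations from their group means that correlated at -0.175 to 0.252, with 6 over 0.1. The 36 pairs with different numbers ran from -0.194 to 0.227, with 8 over 0.1, and 8 of 12 libraries were closer to their own number. These values do not settle whether the numbers pair the libraries. The main model did not pair them, and the replicate block did. Among the 30, the replicate block changed the count of calls only in the 6 against 6 paclitaxel contrast. Precision is lowest for Pdk4 (2 to 68 counts a library), with an SE of 0.86 for paclitaxel against vehicle. Pdk2 (SE 0.37, 48 to 107 counts), Mpc1 (SE 0.35, 19 to 82 counts) and Pcx (SE 0.32) follow in that comparison.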
